A study of Mus musculus with 6 samples.

Results

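The DNA replication genes described here are 39 genes, taken by symbol and by role. They comprise 6 subunits of the MCM helicase, 4 origin licensing factors, 6 factors of helicase activation, 6 genes of the sliding clamp and its loader, 9 polymerase subunits, 4 enzymes of deoxynucleotide synthesis, and a group of 4 with E2f1, the 2 cyclin E genes and Uhrf1. All 39 were found among the 53465 genes of the table, and all had 10 or more counts in at least 3 libraries and entered the test with 8200 genes in all. RNA was sequenced from ID8, a tumour-forming cell line from mouse ovarian surface epithelium, in 3 libraries labelled KO and 3 labelled WT, numbered 4 to 6 in each group. The series describes ID8 cells stably carrying the guide sgNat10, which it calls a knockdown, and cells carrying the control guide sgNC. The sample titles say only KO and WT, which were taken as the sgNat10 and the sgNC cells. NAT10 is the enzyme that makes N4-acetylcytidine (ac4C) in RNA, and the study asked how its loss bears on the DNA damage response. The labels name no clones, and guide and cell line cannot be told apart. Whether replicates are separate cultures is not stated, so every p-value reflects spread among these 6 libraries alone, which may be technical.

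Replication starts from origins at which the origin recognition complex, CDC6 and CDT1 load the MCM ring onto DNA before S phase. CDC45 and the GINS complex then join the ring to make the active helicase, primase and DNA polymerase alpha lay primers, and the polymerases epsilon and delta extend them while held by the PCNA clamp, which replication factor C opens and closes. Many of these genes are transcribed under E2F factors as cells pass from G1 into S phase, and cyclin E with its kinase helps release E2F, so their summed transcript level is high in dividing cells. In bulk RNA, fewer cells in S phase and less of a transcript in each such cell cannot be told apart.

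Depth was low and the libraries were unlike each other. Total counts ran from 2234305 to 3126208 in KO-labelled and from 1687466 to 2148715 in WT libraries. Across the tested genes the correlation of log2 levels was 0.572 to 0.602 between KO-labelled libraries, 0.623 to 0.705 between WT libraries and 0.543 to 0.630 between the groups. Nat10 had 315, 133 and 445 counts in KO-labelled and 168, 128 and 292 counts in WT libraries, with a log2 fold change of -0.07 and a 95% interval from -1.08 to 0.94, so its mRNA did not check the label. Directions below are therefore those of the labels. That of Nat10 turned to 0.03 when scaled by library totals. Of 10 markers of ovarian surface and mesothelial epithelium, 8 were tested and 3 passed (Krt18 and Krt19 lower, Msln higher); Krt19 and Msln stood at 2223 ± 32.1 and 1636 ± 209 CPM (counts scaled to a common library size) in KO-labelled and at 4202 ± 203 and 789 ± 83.5 CPM in WT libraries (SD, n = 3 per group). The leukocyte markers summed to at most 0.931 CPM in KO-labelled and 14.5 CPM in WT libraries, with Tyrobp and Cd3e at 0 in every library. The 4 endothelial markers summed to at most 1.86 CPM in KO-labelled libraries and were at 0 in WT. The 5 fibroblast markers, summed to 967 to 1325 CPM in KO-labelled and 752 to 780 CPM in WT libraries. Only Dcn and Col1a1 among them were tested, and their estimates lay in opposite directions. Dcn, nearly all of the sum, stood at 1117 ± 188 CPM in KO-labelled and 700.2 ± 35.6 CPM in WT libraries, and Col1a1 at 6.17 ± 8.77 CPM in KO-labelled and 67.1 ± 21.9 CPM in WT libraries (SD, n = 3 per group). Neither passed in edgeR (adjusted p = 0.246 and 0.479), and DESeq2 called both (0.00469 and 0.0251). The part of these markers in the results below was not tested.

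The promoters were searched for E2F-type letters, a sequence feature that the choice of genes did not use. The motifs were TTTCCCGC, TTTGGCGC, TTTCGCGC and TTTGCCGC on both strands, overlapping matches counted, in RefSeq windows (GRCm38.p6) from 250 bases before to 50 bases after the start. A window was given for 31 of the 39 genes, the others being Mcm4, Gins1, Gins2, Gins4, Rfc2, Prim2, Pole and Ccne2. At least 1 match stood in 13 of the 31 windows (41.9%), against 4.94% of the windows of tested genes and 2.64% of all windows. By group, the windows with a match were 4 of 5 for the MCM helicase, 3 of 4 for origin licensing, 1 of 3 for helicase activation, 1 of 5 for clamp and loader, 4 of 7 for polymerases, and 0 of 4 and 0 of 3 for deoxynucleotide synthesis and for the group of E2f1, cyclin E and Uhrf1. The 250 bases before the start are shown, 5′ to 3′ on the gene's strand, for Mcm5 and Mcm6, which hold overlapping matches, for Pola1 and Gins3, whose KO and WT values did not overlap, and for Uhrf1, which had the smallest p-value and no match, with the matched letters in capitals.
Mcm5 promoter, chr8:75109259-75109508, plus strand: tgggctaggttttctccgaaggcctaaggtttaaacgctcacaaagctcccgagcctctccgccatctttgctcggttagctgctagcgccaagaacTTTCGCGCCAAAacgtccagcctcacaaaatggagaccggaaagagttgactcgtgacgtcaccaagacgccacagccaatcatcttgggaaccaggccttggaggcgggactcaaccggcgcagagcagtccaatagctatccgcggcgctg
Mcm6 promoter, chr1:128359706-128359955, minus strand: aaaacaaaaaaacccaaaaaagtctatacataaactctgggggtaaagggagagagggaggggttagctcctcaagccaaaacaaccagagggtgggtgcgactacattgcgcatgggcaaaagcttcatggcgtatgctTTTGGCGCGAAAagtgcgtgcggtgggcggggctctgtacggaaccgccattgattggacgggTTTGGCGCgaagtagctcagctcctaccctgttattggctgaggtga
Pola1 promoter, chrX:93632156-93632405, minus strand: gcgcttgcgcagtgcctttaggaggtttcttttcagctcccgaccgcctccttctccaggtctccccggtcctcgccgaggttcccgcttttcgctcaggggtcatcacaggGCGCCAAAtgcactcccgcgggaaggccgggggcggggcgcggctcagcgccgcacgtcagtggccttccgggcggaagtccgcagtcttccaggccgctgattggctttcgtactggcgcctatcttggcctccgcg
Gins3 promoter, chr8:95633309-95633558, plus strand: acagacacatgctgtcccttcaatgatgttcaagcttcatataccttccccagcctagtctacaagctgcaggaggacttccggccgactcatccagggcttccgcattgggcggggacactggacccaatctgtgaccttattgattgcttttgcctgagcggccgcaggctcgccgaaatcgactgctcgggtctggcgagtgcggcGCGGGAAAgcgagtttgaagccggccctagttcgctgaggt
Uhrf1 promoter, chr17:56303087-56303336, plus strand: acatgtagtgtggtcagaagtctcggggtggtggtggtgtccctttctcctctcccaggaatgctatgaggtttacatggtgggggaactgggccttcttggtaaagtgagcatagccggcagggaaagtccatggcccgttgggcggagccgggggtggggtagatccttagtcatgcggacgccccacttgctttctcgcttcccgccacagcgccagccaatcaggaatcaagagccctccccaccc

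A match describes letters in this window and not a bound site. The 13 genes with a match had a median log2 fold change of -0.25 and the 18 without had 0.01, with ranges of -4.45 to 1.23 and -1.24 to 1.07, so that the ranges lay largely over each other. KO and WT values did not overlap for 2 of the 13 and for 3 of the 18, beside 14.9% of all tested genes.

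None of the 39 replication genes passed an adjusted p of 0.05 in the quasi-likelihood test of edgeR after Benjamini-Hochberg adjustment over 8200 genes, where 0.402% of all tested genes passed, 0.22% lower and 0.183% higher. Those 33 genes were 15 higher and 18 lower in KO-labelled libraries. Library totals in place of TMM scaling gave 43 calls, 27 higher and 16 lower, of which 31 were shared with the 33. At an unadjusted p under 0.05 there were 2 members, Uhrf1 and Gins3, both lower in KO-labelled libraries, against 6.49% of all tested genes, and 3.79% lower. DESeq2 called the same 2 genes lower (2.88% of the genes to which it gave an adjusted p, and 1.57% lower) and limma-voom called 0 (0.524% of tested genes). Estimates lay below 0 for 22 members and above 0 for 17, which is 56.4% below against 51% of all tested genes. The median log2 fold change of the 39 was -0.21, beside -0.02 for all tested genes. Without KO replicate 4, WT replicate 4 or WT replicate 5 the median of the members was -0.11, -0.13 and -0.12. KO and WT values did not overlap for 7 members, 17.9% of them, against 14.9% of all tested genes. All 7 were lower in KO-labelled libraries, the direction in which 7.93% of tested genes lay apart (6.94% were higher): Mcm4, Gins3, Rfc5, Pola1, E2f1, Ccne2 and Uhrf1. Gins3, counted at the unadjusted p, in DESeq2 and among these 7, entered the test only through the WT libraries. Its direction and its lack of overlap were thus in part built in by the filter. With library totals Mcm4 and Ccne2 overlapped, which left 5 members, 12.8%, against 15.0% of all tested genes. All 5 were lower in KO-labelled libraries, the direction in which 6.34% of tested genes lay apart with library totals.

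**Figure D1:**
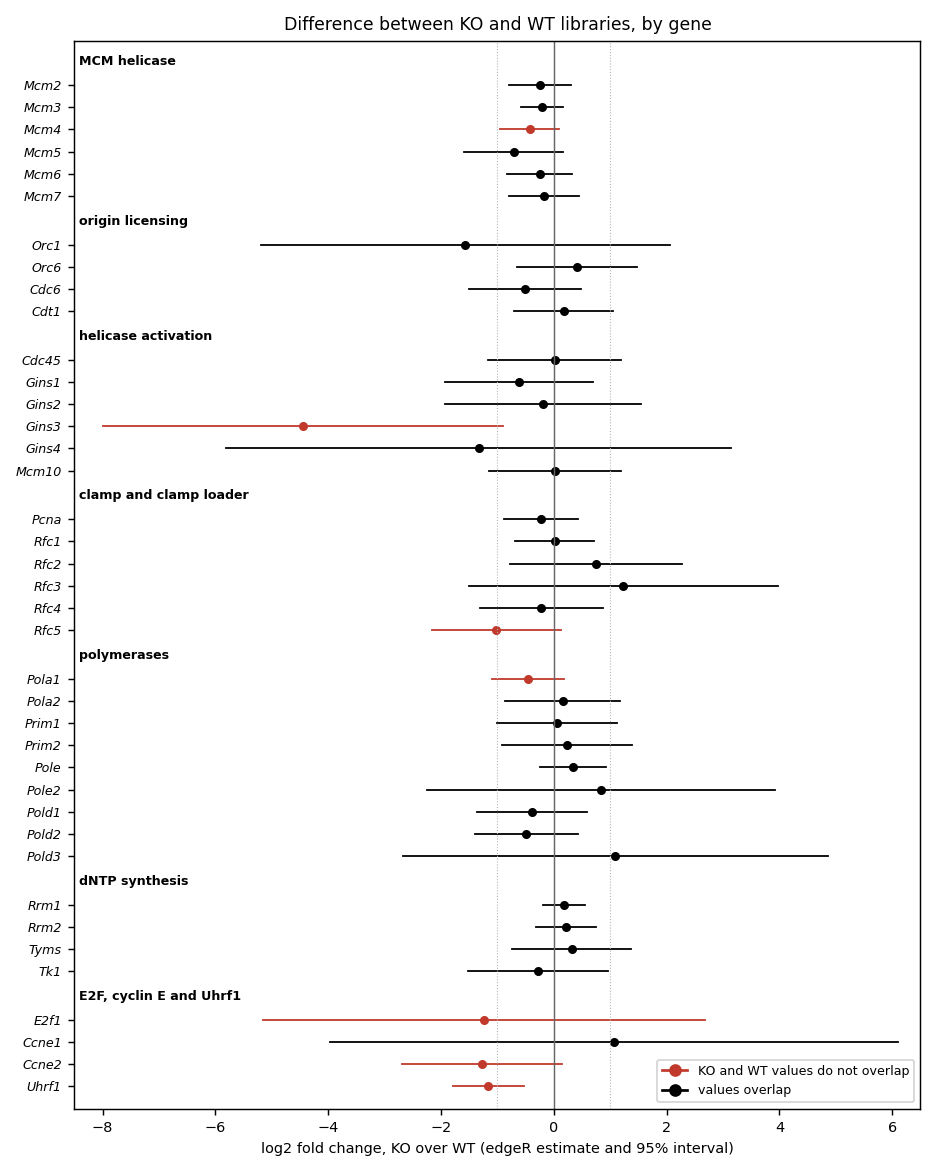
Log2 fold change of KO-labelled over WT libraries for the 39 replication genes by group; points are edgeR estimates, lines 95% intervals, and red marks genes whose KO and WT values did not overlap with TMM scaling, of which Mcm4 and Ccne2 overlap with library totals. Only the intervals of Gins3 and Uhrf1 exclude 0, and those of the MCM genes are narrow beside those of Orc1, Gins4, E2f1 and Ccne1.

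The largest shift relative to its error was that of Uhrf1, which encodes the protein that reads hemimethylated DNA behind the fork and brings in the maintenance methyltransferase DNMT1. Uhrf1 (ENSMUSG00000001228, chromosome 17, 56303321 to 56323486, mm10) had 521, 294 and 518 counts in KO-labelled and 629, 546 and 773 counts in WT libraries, with no exon shared with another annotated gene. Scaled for depth these were 203, 126 and 161 CPM in KO-labelled and 382, 273 and 447 CPM in WT libraries. The highest KO-labelled value, in replicate 4, stood below the lowest WT value, in replicate 5. The log2 fold change was -1.17 ± 0.29 (SE), 0.446 of the WT level with a 95% interval of 0.288 to 0.690, and the edgeR adjusted p was 0.158. DESeq2 gave an adjusted p of 0.00386, and edgeR without a filter on low counts gave 0.0334. With 1 library left out the estimate stayed between -1.344 and -1.003 and the edgeR adjusted p between 0.211 and 0.638. The 22 other tested genes within 500 kb had a median log2 fold change of 0.29, with 9 below 0. Of them 1 had an unadjusted edgeR p under 0.05, against 6.49% of all tested genes, and none was called. Dnmt1 itself, from the wider list of replication genes, stood at 394 ± 108 CPM in KO-labelled and 416 ± 51.0 CPM in WT libraries (SD, n = 3 per group).

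The other genes of that group encode E2F1, a transcription factor that drives S phase genes, and the cyclins E1 and E2, which activate CDK2 at the start of S phase. Ccne2 had 37, 117 and 82 counts in KO-labelled and 88, 213 and 105 counts in WT libraries, or 29.99 ± 18.3 against 73.6 ± 28.7 CPM (SD, n = 3 per group). Its highest KO-labelled value, 50.1 CPM, lay just under its lowest WT value, 53.5 CPM, an order that library totals reversed, at 52.4 in KO replicate 5 and 52.1 CPM in WT replicate 4. The log2 fold change of -1.27 ± 0.66 (SE) had an edgeR adjusted p of 0.874. Other genes' exons cover 17.4% of its exons. The 7 other tested genes within 500 kb of Ccne2 had a median log2 fold change of -0.44, with 6 below 0, 1 at an unadjusted edgeR p under 0.05 and none called. Of all tested genes, 51% lay below 0 and 6.49% had such a p. E2f1 had 34, 36 and 0 counts in KO-labelled and 29, 44 and 55 counts in WT libraries, so that its groups lay apart only by a narrow step beside 1 library at 0. The 95% interval of its log2 fold change ran from -5.16 to 2.67. Ccne1 was absent from KO replicate 5 and WT replicate 6, with 48, 0 and 62 counts in KO-labelled and 1, 32 and 0 counts in WT libraries, and its interval of -3.96 to 6.11 leaves its direction undetermined.

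The MCM helicase is a ring of 6 subunits, MCM2 to MCM7, that unwinds DNA at the fork. All 6 estimates lay below 0, between -0.71 and -0.17, and none passed the test. The signs held under both other scalings, while Mcm6 turned to 0.000433 without WT replicate 4 and Mcm7 to 0.06 without KO replicate 4. Mcm3, the most abundant subunit, had 2528, 2207 and 3044 counts in KO-labelled and 2020, 2289 and 1644 counts in WT libraries, or 959 ± 24.0 against 1107 ± 142 CPM (SD, n = 3 per group). WT replicate 6 lay within the KO-labelled range and WT replicates 4 and 5 above it. Its log2 fold change of -0.21 had a 95% interval from -0.58 to 0.16, which leaves no room for a 2-fold change in either direction. Mcm4 had 619, 728 and 897 counts in KO-labelled and 514, 889 and 628 counts in WT libraries. On the CPM scale these were 277 ± 35.1 in KO-labelled and 373 ± 66.4 in WT libraries, and the groups were divided by less than 1 CPM, with 312 in KO replicate 5 and 313 in WT replicate 4. With library totals these were 326 and 305 CPM, so the groups of Mcm4 overlapped. Mcm5 had the lowest estimate, -0.71 ± 0.41 (SE, edgeR adjusted p = 0.967), from 558, 243 and 268 counts in KO-labelled and 364, 612 and 236 counts in WT libraries. KO replicate 4 stood at 218 CPM beside 104 and 83.1 CPM in replicates 5 and 6, and WT replicate 6 at 136 CPM lay below it, so the groups overlapped. With 1 library left out the estimate of Mcm5 lay between -1.23, without KO replicate 4, and -0.41, without WT replicate 5. Mcm2, Mcm6 and Mcm7 had log2 fold changes of -0.25, -0.25 and -0.17.

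The MCM ring holds 1 of each subunit, and per kilobase of joined exons the values of their genes were not equal. Mcm3 stood at 255 ± 6.39 CPM per kb in KO-labelled and 295 ± 37.9 CPM per kb in WT libraries (SD, n = 3 per group). On this measure it was above every other subunit of the ring. Mcm4 and Mcm6 followed at 77.2 ± 9.79 and 80.2 ± 7.70 CPM per kb in KO-labelled and 104 ± 18.5 and 95.1 ± 33.3 CPM per kb in WT libraries, and differed from each other by less than their spread in both groups. Mcm7, Mcm2 and Mcm5 stood at 57.2 ± 16.9, 48.7 ± 10.4 and 33.8 ± 18.1 CPM per kb in KO-labelled and 64.6 ± 7.36, 57.8 ± 11.6 and 55.4 ± 21.2 CPM per kb in WT libraries, neighbours that again lay within their spread. Lengths here are those of all annotated exons of a gene joined, so transcripts shorter than that union are given too low a level. These values thus cannot show whether the subunits were at like levels.

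**Figure D2:**
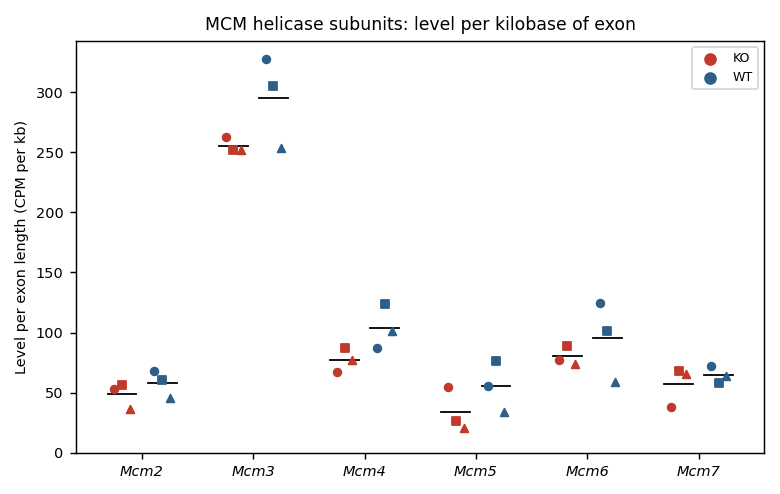
Level of the 6 MCM subunits in CPM per kilobase of exon, KO-labelled libraries in red and WT in blue; symbols are replicates 4 (circle), 5 (square) and 6 (triangle) and black lines group means. Mcm3 stands above every other subunit in each of the 6 libraries.

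Origin licensing genes showed no common direction. Cdc6, the ATPase that brings the MCM ring to the origin, had 124, 320 and 227 counts in KO-labelled and 253, 186 and 205 counts in WT libraries, or 85.3 ± 46.1 against 122 ± 30.6 CPM (SD, n = 3 per group). KO replicate 5, at 137 CPM, lay inside the WT range. Its partner Cdt1 had 338, 370 and 503 counts in KO-labelled and 143, 441 and 151 counts in WT libraries, or 149 ± 14.7 against 132 ± 76.9 CPM. The KO-labelled values of Cdt1 were close together, and WT replicate 5 at 220 CPM stood apart from 86.9 and 87.3 CPM in the other WT libraries. The log2 fold changes were -0.51 ± 0.46 for Cdc6 and 0.18 ± 0.41 for Cdt1 (SE). Orc6, a subunit of the origin recognition complex, had an estimate of 0.41 with an interval of -0.65 to 1.47. Orc1, its largest subunit, had 0, 0 and 121 counts in KO-labelled and 85, 82 and 42 counts in WT libraries, so KO replicate 6 alone carried the KO-labelled group. Its log2 fold change of -1.57 had an interval of -5.20 to 2.06. The 14 other tested genes within 500 kb of Orc1 had a median log2 fold change of -0.59, with 11 below 0, 3 at an unadjusted p under 0.05 and none called. Of all tested genes, 51% lay below 0 and 6.49% had an unadjusted edgeR p under 0.05.

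Among the genes of helicase activation, Gins3 stood out by its absence from 1 group. GINS is a complex of 4 subunits that holds CDC45 on the MCM ring, and Gins3 encodes the subunit also called PSF3. Gins3 (ENSMUSG00000031669, chromosome 8, 95633453 to 95645060, mm10) had 0, 0 and 0 counts in KO-labelled and 18, 44 and 39 counts in WT libraries. The groups did not overlap, and Gins3 entered the test only through the WT libraries, so some difference was built into its passing the filter. With the KO-labelled group taken at 3 counts in all, or 0.369 CPM, its level would be 50.9-fold lower than the WT level. That limit covers counting error of the KO-labelled group only, since amplified reads are not independent molecules. The edgeR log2 fold change was -4.45 at the prior count of 2, with an interval of -7.99 to -0.91. With no KO-labelled count the estimate depends on the prior count. It was -6.40 at a prior count of 0.5, and -8.05 in DESeq2. The interval is computed from the estimate, so its ends depend on the prior count too. At the prior count of 2 the upper end is 0.534 of the WT level, so the fitted spread leaves room for a much smaller difference. The edgeR adjusted p was 0.547 and that of DESeq2 was 0.0245, and limma-voom did not call it. The 7 other tested genes within 500 kb had a median log2 fold change of 0.52, with 2 below 0. None had an unadjusted edgeR p under 0.05, against 6.49% of all tested genes, and none was called.

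The other subunits of GINS were Gins1 at 42.2 ± 22.4 against 65.4 ± 8.64 CPM, Gins2 at 33.7 ± 8.61 against 38.8 ± 12.95 CPM and Gins4 at 8.63 ± 10.1 against 23.0 ± 24.9 CPM, in KO-labelled against WT libraries (SD, n = 3 per group). All 4 estimates of GINS lay below 0, though that of Gins2 turned to 0.10 without WT replicate 5, and 67.3% of the exons of Gins2 lie under exons of other genes. Gins4 was at 0 in KO replicate 4 and in WT replicate 6. Cdc45 had 273, 75 and 300 counts in KO-labelled and 140, 199 and 78 counts in WT libraries, or 77.2 ± 39.6 against 76.6 ± 28.2 CPM. Its values overlapped throughout, and its log2 fold change of 0.01 had an interval of -1.16 to 1.19. Mcm10, a scaffold that helps activate the helicase, had an estimate of 0.02 with an interval of -1.15 to 1.19. Neither Cdc45 nor Mcm10 can thus be placed within 2-fold from these libraries.

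**Figure D3:**
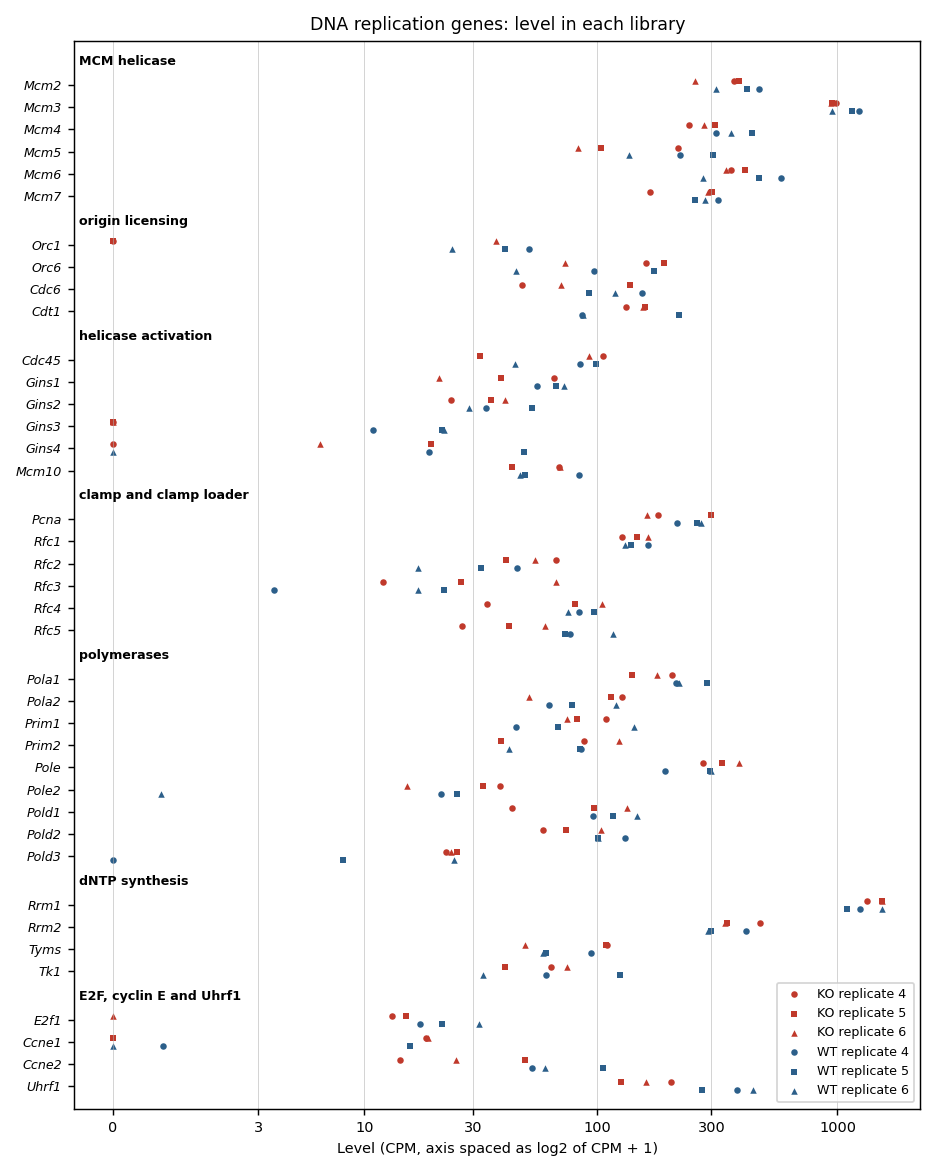
Level of each replication gene in each library, in CPM on an axis spaced as log2 of CPM + 1, with KO-labelled libraries in red above WT libraries in blue. Gins3 is at 0 in all 3 KO-labelled libraries, and Orc1, Gins4, Pold3, E2f1 and Ccne1 are at 0 in some libraries and not in others of the same group.

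The clamp and its loader were spread around 0. Pcna, the ring that tethers polymerases, had 463, 699 and 523 counts in KO-labelled and 356, 524 and 469 counts in WT libraries, or 214 ± 74.4 against 249.8 ± 29.3 CPM (SD, n = 3 per group). KO replicate 5 at 299 CPM was the highest of the 6 libraries and the other KO-labelled libraries were the lowest. Its log2 fold change was -0.22, with an interval of -0.88 to 0.43. Replication factor C, the loader, has a large subunit and 4 small ones. Rfc1, the large subunit, stood at 146 ± 18.2 CPM in KO-labelled and 145 ± 16.5 CPM in WT libraries, a log2 fold change of 0.01 with an interval of -0.69 to 0.72. Rfc5 had 69, 100 and 196 counts in KO-labelled and 127, 147 and 202 counts in WT libraries, or 43.5 ± 17.0 against 89.2 ± 24.0 CPM. Its groups lay apart, at 60.8 CPM and below in KO-labelled and 73.5 CPM and above in WT libraries, and its log2 fold change of -1.02 ± 0.54 (SE) had an edgeR adjusted p of 0.878. Rfc2, Rfc3 and Rfc4 had estimates of 0.76, 1.23 and -0.22. Exons of other genes cover 15.1% of the exons of Rfc2, 12.7% of Rfc4 and 10.7% of Rfc5, and whether counting used the strand is unknown here, so part of their reads cannot be assigned with certainty. The same holds for Mcm7 (12.6%) and Orc1 (10.8%).

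Polymerase subunits differed among themselves more than as a group. Pola1, the catalytic subunit of DNA polymerase alpha, had 528, 328 and 576 counts in KO-labelled and 353, 575 and 381 counts in WT libraries, or 175 ± 32.9 against 241 ± 40.4 CPM (SD, n = 3 per group). The groups lay apart by a small step, with 206 CPM in KO replicate 4 and 215 CPM in WT replicate 4, and the log2 fold change was -0.46 with an interval of -1.09 to 0.17. Its partners Pola2, Prim1 and Prim2, the accessory subunit and the primase pair, had estimates of 0.16, 0.05 and 0.23. Pole, the catalytic subunit of the leading strand polymerase epsilon, had 708, 772 and 1256 counts in KO-labelled and 315, 595 and 518 counts in WT libraries, or 332 ± 56.7 against 263 ± 61.7 CPM. WT replicates 5 and 6 lay within the KO-labelled range, and the log2 fold change was 0.34 with an interval of -0.24 to 0.92. Pole2 was at 1 count in WT replicate 6 and had an interval of -2.25 to 3.92. For polymerase delta, which extends the lagging strand, Pold1 and Pold2 had estimates of -0.38 and -0.48. Pold3 stood at 24.3 ± 1.34 CPM in KO-labelled and 10.95 ± 12.7 CPM in WT libraries, with 0 counts in WT replicate 4.

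The enzymes of deoxynucleotide synthesis included the most abundant member. Rrm1, the large subunit of ribonucleotide reductase, had 3411, 3569 and 4907 counts in KO-labelled and 2044, 2202 and 2644 counts in WT libraries, or 1460.4 ± 112 against 1291 ± 218 CPM (SD, n = 3 per group). WT replicate 6, at 1529 CPM, was as high as the KO-labelled libraries, and the log2 fold change of 0.18 had an interval of -0.19 to 0.55. Rrm2, the small subunit whose level is tied to S phase, stood at 389 ± 76.8 CPM in KO-labelled and 335 ± 70.6 CPM in WT libraries, with an interval of -0.32 to 0.75. Per kilobase of joined exons, Rrm1 and Rrm2 stood at 133 ± 10.2 and 140.5 ± 27.7 CPM per kb in KO-labelled libraries. In WT libraries these were 117 ± 19.8 and 121 ± 25.5 CPM per kb. The joined length was 11012 bases for Rrm1 and 2771 bases for Rrm2. Transcripts shorter than the joined exons are given too low a level, so these values cannot show whether the subunits were at like levels. Tyms, thymidylate synthase, and Tk1, thymidine kinase, had estimates of 0.32 and -0.28, each with an interval that includes 0.

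Summed over its members, each group gave a level per library. The 39 genes together took 6605, 6918 and 6671 CPM in KO-labelled and 7526, 7610.0 and 6993 CPM in WT libraries. These did not overlap with TMM scaling, but with plain library totals they did, at 6924 ± 287 in KO-labelled and 7033 ± 332 CPM in WT libraries (SD, n = 3 per group). Library totals moved the median log2 fold change of all tested genes to 0.09, beside -0.02 with TMM, and that of the members to -0.10. The MCM sum overlapped between groups under both scalings, at 2337 ± 134 CPM in KO-labelled and 2834 ± 446 CPM in WT libraries. The deoxynucleotide synthesis sum was 1983, 2027 and 1988 CPM in KO-labelled and 1814, 1586 and 1910.2 CPM in WT libraries, without overlap under either scaling, and consists mostly of Rrm1. The sum of the group of E2f1, cyclin E and Uhrf1 was 215 ± 30.4 CPM in KO-labelled and 470.3 ± 62.7 CPM in WT libraries, also without overlap, and consists mostly of Uhrf1. Origin licensing, helicase activation, clamp and loader, and polymerases overlapped under both scalings. Median log2 fold changes ran from -1.20 for the group with Uhrf1, -0.41 for helicase activation, -0.25 for the MCM helicase, -0.17 for origin licensing and -0.10 for clamp and loader to 0.16 for polymerases and 0.20 for deoxynucleotide synthesis. The median of clamp and loader turned to 0.01 with library totals, and the other medians kept their sign there. With 1 library left out, origin licensing turned to 0.02 (without KO replicate 4) and 0.05 (without WT replicate 5), polymerases to -0.04 (without KO replicate 4) and -0.03 (without WT replicate 4), and clamp and loader to 0.12 (without KO replicate 4). Differences between these medians were not tested.

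**Figure D4:**
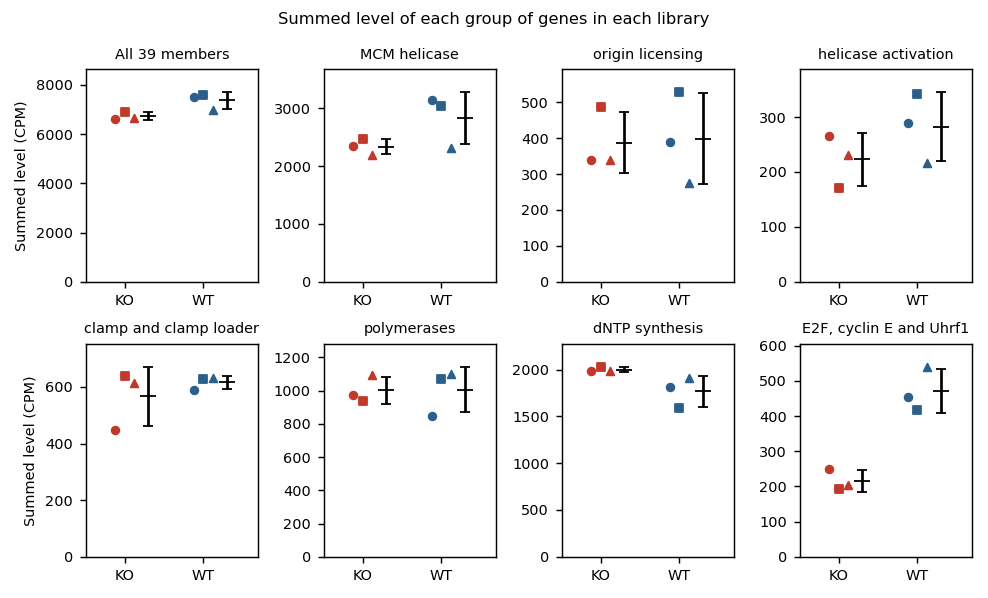
Summed level in CPM of all 39 genes and of each group in each library, KO-labelled in red and WT in blue; symbols are replicates 4 (circle), 5 (square) and 6 (triangle), and bars show the mean and SD. With the TMM scaling plotted, KO and WT sums lie apart for all 39 genes, for deoxynucleotide synthesis and for the group with Uhrf1, and overlap in the other panels.

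How firmly a gene can be placed followed its level. The 95% interval lay wholly within a 2-fold change in both directions for 10 members, against 9.54% of all tested genes: Mcm2, Mcm3, Mcm4, Mcm6, Mcm7, Pcna, Rfc1, Pole, Rrm1 and Rrm2. Of the 39 genes, 11 stood among the 10% most abundant of tested genes, and the median level was 87.4 CPM, beside 36.6 CPM for all tested genes. The median biological coefficient of variation that edgeR fitted was 0.469 for the members and 0.841 for all tested genes. At low levels the counts broke up. In 5 members, Orc1, Gins4, Pold3, E2f1 and Ccne1, at least 1 library had no count while another of the same group had 20 or more. This pattern was seen in 30.3% of tested genes, and whether it comes from the cells or from the libraries was not tested.

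**Figure D5:**
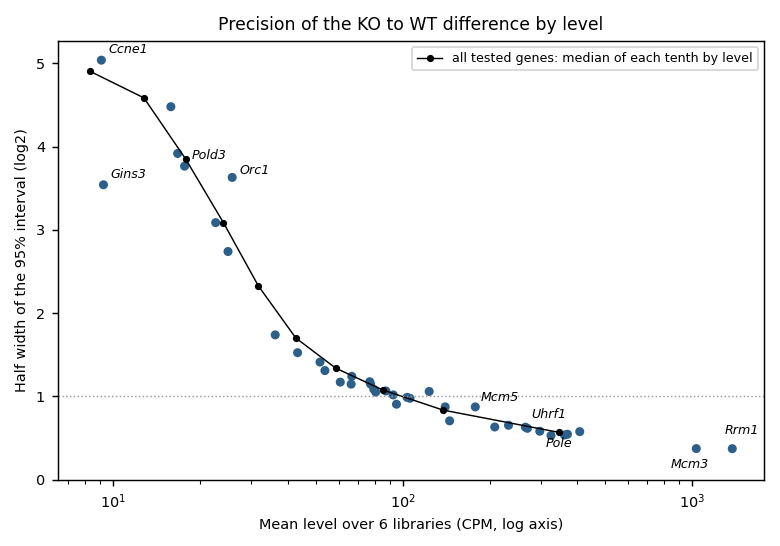
Distance from the log2 fold change to the end of its 95% interval, against mean level over the 6 libraries (log axis) for the 39 replication genes (blue) and the median of all tested genes in 10 bins by level (black line); the dotted line marks 1, a 2-fold change. The distance narrows with level, from over 5 for Ccne1 to under 0.5 for Mcm3 and Rrm1.

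The wider replication machinery likewise had no call in edgeR. Of 69 other replication genes, 67 were tested and none passed in edgeR, with 3 at an unadjusted p under 0.05 (2 lower and 1 higher), while DESeq2 called 2 and limma-voom 0. The 3 are 4.48% of the 67, against 6.49% of all tested genes. Estimates lay below 0 for 43, or 64.2% against 51% of all tested genes, and the median log2 fold change was -0.11. The 5 smallest p-values belonged to Cdkn1a, Donson, Mtbp, Dna2 and Top2a. Cdkn1a, the p21 inhibitor of cyclin-dependent kinases, had 396, 285 and 419 counts in KO-labelled and 11, 90 and 73 counts in WT libraries, without overlap (log2 fold change 2.08, edgeR adjusted p = 0.297, DESeq2 0.00906). Donson, which encodes a factor that brings GINS to the MCM ring, had 0, 1 and 0 counts in KO-labelled and 34, 90 and 43 counts in WT libraries. Donson thus resembled Gins3 in its counts, with an edgeR adjusted p of 0.466 and 0.00316 in DESeq2, and like Gins3 it entered the test only through the WT libraries. Mtbp, a partner of the origin firing factor TICRR, stood at 63.7 ± 13.7 CPM in KO-labelled and 143 ± 20.2 CPM in WT libraries, again without overlap (edgeR adjusted p = 0.495). Dna2, a nuclease and helicase that trims flaps on the lagging strand, had 0, 4 and 20 counts in KO-labelled and 35, 38 and 122 counts in WT libraries. Top2a, topoisomerase II alpha, stood at 1648 ± 120.3 CPM in KO-labelled and 2027 ± 211 CPM in WT libraries, a log2 fold change of -0.30 ± 0.15 (SE).

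Markers of G2 and mitosis were set beside these genes, since the share of dividing cells moves both. Top2a is in this list and also among the other replication genes, and it is the largest part of the summed level of the markers. Of 13, none passed in edgeR, 2 had an unadjusted p under 0.05 (1 higher, Foxm1, and 1 lower, Aurka), and the median log2 fold change was -0.19. Their summed level was 4362 ± 165 CPM in KO-labelled and 5362 ± 534 CPM in WT libraries (SD, n = 3 per group), and 4372, 4193 and 4522 CPM in KO-labelled libraries lay below 5809, 5506 and 4771 CPM in WT libraries. With library totals the groups overlapped, at 4663 CPM in KO replicate 6 and 4557 CPM in WT replicate 6. Mki67, a general marker of cycling cells, stood at 837 ± 148 CPM in KO-labelled and 1050.0 ± 508 CPM in WT libraries. The part of cell division in the levels of the replication genes was not tested.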

How the data were processed

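Poly(A) RNA of 6 ID8 libraries was sequenced per the labels' protocols. Build mm10 and the programs HISAT2 2.0.5, featureCounts 1.5.0-p3 and fastp appear in the submitters' processing notes, with settings, strand mode and annotation release not given in the sources used here. What the authors deposited is a table of whole-number read counts per gene that they had not normalized. Totals ran from 1687466 to 3126208 counts, and 1 count equalled 0.320 to 0.593 CPM, depending on the library; intervals and floors cover counting error or the fitted spread only. No columns of other samples were present.

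Of 53465 genes, 53360 were matched to GENCODE M21. The whole table was tested with edgeR 4.0.16 (R 4.3.3): filterByExpr (minimum count 10), TMM scaling, a robust quasi-likelihood fit on group, prior count 2 for log2 fold changes, Benjamini-Hochberg adjustment and a threshold of 0.05. Standard errors and 95% intervals come from the quasi-likelihood F statistic. CPM values use TMM-scaled totals. Sums and medians over groups of genes are descriptions without a test. The script was tested on simulated data.

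Members and lists were chosen with earlier results of these data known. Genes given with counts were, by rule, members called or with an unadjusted p under 0.05 or with groups that do not overlap, the member of each group with the smallest p and the one with the highest level, the 5 smallest p-values of the other replication genes, and Nat10. Orc1, Ccne1 and the markers and Dnmt1 given with levels fall outside the rule and were chosen after their values were seen. Also outside the rule are Rfc1, Rrm2, Gins1, Gins2, Gins4 and Pold3, given with levels. The same holds for Mcm2, Mcm6 and Mcm7, given per kilobase, and for Pole2, given with a count. Alternatives were DESeq2 1.42.0, limma-voom (limma 3.58.1), DESeq2 size factors, library totals, 3 other filters, the replicate block, thinning to 1687466 counts, a threshold of 0.01, a prior count of 0.5 and leaving out each library. Promoter windows are RefSeq's, 1 per gene, at the start nearest to that of the GENCODE gene. The level of 1 listed marker is not reported here.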

Additional observations from a re-analysis of the deposited data

How the results depend on the processing

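The count of genes called in edgeR was 33 of 8200. It was 234 with DESeq2, 91 without a filter on low counts, 16 at a threshold of 0.01, and 6 to 29 with 1 library left out: 15, 20 and 18 without KO replicates 4, 5 and 6, and 29, 6 and 6 without WT replicates 4, 5 and 6. The members called were 0 in edgeR, 2 with DESeq2 (Gins3 and Uhrf1) and 1 without a filter on low counts (Uhrf1), and 0 in every other setting, leave-one-out fits included; the cause was not tested. The median of helicase activation, -0.41, ran from -0.53 to -0.13 with 1 library left out, the last without WT replicate 5. The other medians ran from -0.25 to -0.11 for all members, -0.43 to -0.12 for the MCM helicase, -0.43 to 0.05 for origin licensing, -0.13 to 0.12 for clamp and loader, -0.04 to 0.29 for polymerases, 0.10 to 0.28 for deoxynucleotide synthesis and -1.36 to -0.93 for the group with Uhrf1. With 1 library left out the estimate of Cdt1, main estimate 0.18, ran from -0.0489 to 0.766, that of Cdc45, main estimate 0.01, from -0.27 to 0.39, and that of Nat10, main estimate -0.07, from -0.35 to 0.35. With all libraries the sign of Cdc45 turned to -0.0457 in limma-voom and -0.0562 with the replicate block, and that of Nat10 to 0.0263 with library totals and 0.0195 in limma-voom. Over all 16 other fits, 27 members kept their sign, 17 below 0 and 10 above, and 12 changed it in at least 1. Replicate numbers 4 to 6 occur in both groups. Deviations from the group means correlated at -0.0167, -0.00258 and -0.00666 between the libraries numbered 4, 5 and 6. Between libraries of different numbers the correlations ran from -0.0204 to 0.0284. These values were not tested. With libraries so unlike each other, they cannot show whether the numbers pair the samples. With the replicate block 38 genes and 0 members were called. The 95% intervals of Orc1, Cdc45, Gins2, Gins4, Mcm10, Rfc3, Prim1, Pole2, Pold3, E2f1 and Ccne1 reach past a 2-fold change in both directions.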
